A study of Mus musculus with 111 samples.

Results

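Medium spiny neurons are the projection neurons of the striatum, and 9 genes known for marking them were followed here through sorted glial and residual cell fractions: Penk, Pdyn, Tac1, Drd2, Adora2a, Ppp1r1b, Pde10a, Rgs9 and Scn4b. For each gene the probe set annotated to that symbol alone was taken, and a gene with several was read from its brightest, judged over all 111 arrays. This gave values for 8 of the 9 genes, out of 18194 genes named in the whole series. Adora2a, an adenosine receptor gene, was not analysed here. All levels are log2 array signals, so a difference of 1 is a doubling, and levels are compared between samples for 1 gene at a time, never between genes.

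Medium spiny neurons use GABA as their transmitter and fall into a direct pathway, whose cells carry the dopamine D1 receptor with the peptides of Tac1 and Pdyn, and an indirect pathway, whose cells carry the D2 receptor, the Adora2a receptor and the peptides of Penk. Dopamine acts on both through cyclic AMP and protein kinase A, and the product of Ppp1r1b, DARPP-32, is a main target of that kinase. Loss of these transcripts is a known feature of the striatum in Huntington's disease and its mouse models.

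The arrays measured RNA of cells sorted from mouse striatum: astrocytes (GLT1+/CD11b-), microglia (GLT1-/CD11b+) and a negative fraction (GLT1-/CD11b-) that lacked both surface proteins. R6/2 mice (R62 in the labels), transgenic for exon 1 of the human huntingtin gene, were sampled at 6 weeks (5 R6/2 and 5 wild-type samples in each fraction) and 12 weeks (6 R6/2 and 5 wild-type). zQ175 mice (Q175 in the labels), in which the mouse Htt gene itself holds the long repeat, were sampled at 6 months and at 12 months (4 zQ175 and 4 wild-type samples at each age in each fraction). Wild-type (WT) samples carry neither mutation. These made 24 groups of 4 to 6 samples and 111 arrays. Each sample pools striata by litter and genotype, with the subventricular zone cut away before sorting, so p-values measure the spread between pools and not between animals. Both mutations are inherited and not limited to a cell type, and no fraction was selected for neurons.

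The fractions held other cells beside those named. Over WT samples the astrocyte marker list stood at 12.48 in the fraction sorted for GLT1, at 8.04 in microglia and at 9.19 in negative cells, and microglia markers averaged 12.64 in microglia against 5.24 and 5.90. Oligodendrocyte markers averaged 12.19 in astrocytes and 11.87 in the negative fraction, where endothelial and mural markers stood at 11.87 and markers of young neurons at 11.61. For pan-neuronal markers the averages were 7.72 (astrocytes), 6.35 (microglia) and 8.57 (negative fraction). Array medians ran from 6.26 to 6.65, and the lowest correlation between arrays of a group was 0.950, in the R6/2 negative fraction at 12 weeks. WT samples 12 and 20 had Y-linked means of 2.80 to 3.86 in all 3 fractions, against 7.21 to 9.79 in every other sample. In bulk samples such as these, fewer neurons or fragments of them and less RNA in each cannot be told apart.

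The 8 genes did not follow 1 neuronal pattern. Ppp1r1b was highest in astrocytes in all 8 genotype and age settings, Scn4b in the negative fraction in all 8, and Pdyn, although dim, in microglia. The label names what these genes mark in intact striatum, but across these fractions they did not act as 1 set, so each is described on its own.

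The start regions of Scn4b and Tac1 are shown because Scn4b was called lower by genotype in 4 comparisons, the most of the 8 genes, and Tac1 in 0 of the 10 that tested it. Each window holds the 250 bases before the annotated start, from RefSeq on GRCm38.p6, on the plus strand. The RefSeq table held entries for 6 of the 8 genes, with Ppp1r1b and Penk unmatched. Scn4b lies on chromosome 9 from 45138624 to 45154155, and its window is chr9:45138374-45138623. Tac1 lies on chromosome 6 from 7555061 to 7562978, and its window is chr6:7554811-7555060. Capitals mark TGACG, the core of the cyclic AMP response element, read on either strand (CGTCA on the printed strand).
Scn4b: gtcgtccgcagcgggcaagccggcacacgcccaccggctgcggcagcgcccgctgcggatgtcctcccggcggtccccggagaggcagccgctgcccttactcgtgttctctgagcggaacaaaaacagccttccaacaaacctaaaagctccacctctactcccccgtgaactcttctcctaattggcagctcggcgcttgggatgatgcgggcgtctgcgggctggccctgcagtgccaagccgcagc
Tac1: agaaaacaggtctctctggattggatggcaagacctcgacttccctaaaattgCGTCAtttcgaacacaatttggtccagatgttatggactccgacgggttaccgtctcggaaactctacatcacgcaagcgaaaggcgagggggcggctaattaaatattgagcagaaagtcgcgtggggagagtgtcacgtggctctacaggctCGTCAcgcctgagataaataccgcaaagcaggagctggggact
The Tac1 window held 2 matches to TGACG, both on the minus strand, which end 193 and 39 bases before the start. The Scn4b window held 0, as did the 6 windows of Pdyn, Drd2, Rgs9 and Pde10a. Of 32851 RefSeq windows of this length, 17.8% held TGACG. The full palindrome TGACGTCA was in 1.5% of windows and in none of these 8, and its letters overlap TGACG. A match is a stretch of letters, and its absence says only that these letters are not in the window.

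Ppp1r1b, the DARPP-32 gene (chromosome 11, 98348406 to 98357796), separated the WT fractions by the widest margin. Its WT signal was 9.83 ± 0.21 (SD, n = 18) in astrocytes. Microglia had 6.24 ± 0.60 (n = 18) and negative cells 6.36 ± 0.56 (n = 18). The lowest WT astrocyte sample, at 9.37, lay above the highest sample of both other fractions, 7.20 and 7.56. The difference was 3.59 ± 0.16 (SE) from microglia and 3.47 ± 0.16 from the negative fraction, or 12.1-fold and 11.1-fold (limma adjusted p = 3.92e-27 and 6.64e-26). Microglia and the negative fraction differed by -0.12, with a 95% interval of -0.44 to 0.20.

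Scn4b, which encodes the beta-4 subunit of voltage-gated sodium channels, had the opposite placement. WT samples averaged 8.94 ± 0.48 (SD, n = 18) in the negative fraction, 6.75 ± 0.62 (n = 18) in astrocytes and 6.39 ± 0.95 (n = 18) in microglia. All 18 astrocyte samples lay below the lowest negative sample, 8.05, whereas 2 WT microglia samples of 6 weeks reached 8.21 and 8.29. Relative to the negative fraction the difference was -2.20 ± 0.23 in astrocytes (SE, adjusted p = 4.01e-12), 4.58-fold lower, and -2.55 ± 0.23 in microglia (adjusted p = 1.85e-14), 5.86-fold lower. Astrocytes and microglia differed by 0.36 (95% interval -0.11 to 0.82).

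The peptide genes were spread over the fractions with wide ranges. Penk, the enkephalin precursor gene, averaged 7.02 ± 1.08 (SD, n = 18) in the WT negative fraction, with samples from 4.89 to 8.93. Against that fraction the difference was -0.79 ± 0.27 (SE) in astrocytes (adjusted p = 0.0083) and -1.09 ± 0.27 in microglia (adjusted p = 0.000328), while astrocytes and microglia differed by 0.29 (-0.26 to 0.84). Tac1, the precursor gene of substance P, averaged 6.87 in the negative fraction and 6.66 in astrocytes, which overlapped over most of their range. Microglia averaged 5.25, a difference of -1.62 ± 0.30 from the negative fraction (adjusted p = 2.39e-06), and astrocytes stood 1.41 ± 0.30 above microglia (adjusted p = 2.48e-05). Pdyn, the dynorphin precursor gene, was under the brightness needed for a test in this comparison and averaged 5.44 in microglia, against 4.81 and 4.71 in astrocytes and negative cells.

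Drd2, the dopamine D2 receptor gene, lay under the brightness limit and was tested in no comparison. WT samples averaged 4.71 (3.40 to 6.34) in the negative fraction, 3.93 (3.43 to 4.74) in astrocytes and 3.84 (3.24 to 4.94) in microglia, and all 3 ranges overlapped. Pde10a encodes a phosphodiesterase of medium spiny neurons that breaks down cyclic nucleotides. It averaged 6.27 in the WT negative fraction, 5.94 in astrocytes and 5.33 in microglia. Microglia differed from the negative fraction by -0.93 ± 0.15 (adjusted p = 2.89e-07), and astrocytes stood 0.60 ± 0.15 above microglia (adjusted p = 0.000368). The smaller step from the negative fraction to astrocytes, -0.33 ± 0.15 (adjusted p = 0.0478), lost its call in 19 fits that each left out 1 sample (-0.27 to -0.33, adjusted p = 0.0516 to 0.098). Rgs9, whose product speeds the switching off of G proteins, averaged 6.40 in astrocytes, with 5.84 and 5.91 in microglia and negative cells. Astrocytes were higher by 0.56 ± 0.12 and 0.50 ± 0.12 (adjusted p = 3.91e-05 and 0.000272). After a further quantile normalization the first of these was 0.18 (adjusted p = 0.148), and the step of Pde10a from the negative fraction to astrocytes was -0.11 (adjusted p = 0.543).

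Counted over the 6 genes tested, 4 were called between astrocytes and microglia, where 85.6% of all genes were called, and astrocytes had the higher level of each. For astrocytes against negative cells 5 were called, against 75.9% of all genes, with 2 higher in astrocytes and 3 lower. Between microglia and the negative fraction 4 were called, against 83.7% of all genes, and all 4 were lower in microglia. These shares lie near the background, so the count says little about these genes, and their sizes and directions differed gene by gene. With the mean over all probe sets of a gene in place of the brightest, the counts were 1, 3 and 2. Pde10a, Rgs9 and Tac1 then fell under the brightness limit and were not tested, so the lower counts are not failed tests.

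Among other genes of striatal projection neurons, 28 of 44 named were tested between WT fractions. Between microglia and the negative fraction 21 were lower and 6 higher in microglia (median -1.32, all genes -0.03), and between astrocytes and microglia 18 were higher and 4 lower in astrocytes (median 1.38, all genes 0.05). Between astrocytes and the negative fraction 11 were higher and 12 lower, with a median of -0.12. Of 19 pan-neuronal markers tested, the negative fraction exceeded microglia for 18 and astrocytes for 10, and fell short of astrocytes for 4.

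**Figure D1:**
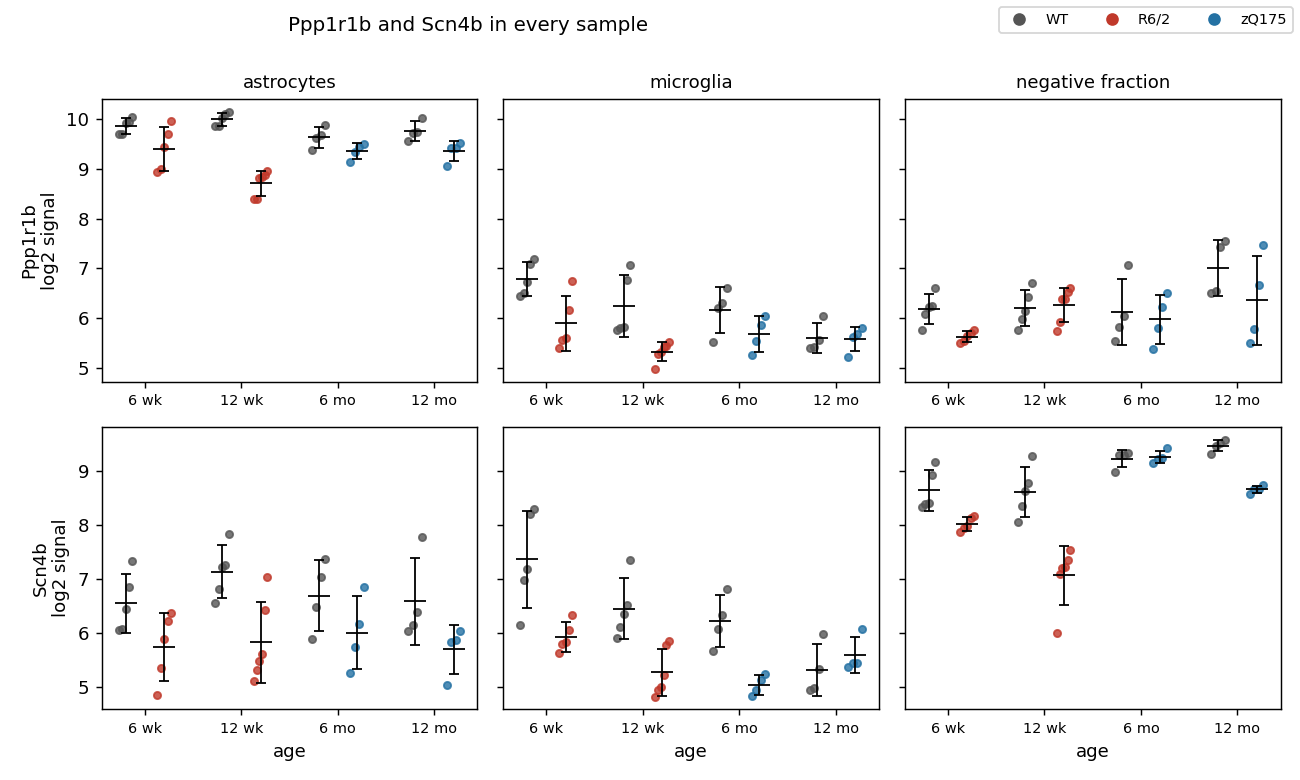
Log2 signal of Ppp1r1b (top) and Scn4b (bottom) in each sample by sorted fraction, age and genotype; horizontal marks are group means and bars are SDs (n = 4 to 6). Ppp1r1b sits above 8 in every astrocyte sample and below 8 in every other sample, and Scn4b of the negative fraction is lower in R6/2 at 12 weeks and in zQ175 at 12 months than in WT.

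Over the 24 group means, Ppp1r1b ran from 9.998 in WT astrocytes at 12 weeks down to 5.33 in R6/2 microglia at 12 weeks. The 8 astrocyte groups took the top 8 places. R6/2 astrocytes at 12 weeks came last among them, at 8.71, 0.64 below zQ175 astrocytes at 6 months and 1.71 above the next group, the WT negative fraction at 12 months. Of the 23 steps between neighbours, 3 were wider than the SD of both groups. Scn4b ran from 9.47 in the WT negative fraction at 12 months to 5.03 in zQ175 microglia at 6 months. The 7 highest groups were all of the negative fraction, and R6/2 at 12 weeks was the exception, in place 10 at 7.06, under WT microglia at 6 weeks (7.36) and WT astrocytes at 12 weeks (7.13). Again 3 of 23 steps were wider than both SDs.

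The other genes had flatter orders. Tac1 ran from 7.95 in the zQ175 negative fraction at 12 months to 4.33 in R6/2 microglia at 12 weeks, with 1 of 23 steps wider than both SDs, the lowest. Astrocyte groups of the months cohort stood at 7.19 to 7.93 for Tac1 and those of the weeks cohort at 5.81 to 6.38. The cohorts differ in age, model and litters and were not contrasted. Penk ran from 7.43 in the WT negative fraction at 12 weeks to 4.90 in R6/2 microglia at 12 weeks, Pde10a from 6.60 to 5.01, Rgs9 from 6.70 to 5.44, Drd2 from 5.06 to 3.28 and Pdyn from 5.77 to 4.44. None of their neighbouring groups was separated by more than both SDs. R6/2 microglia at 12 weeks were the lowest of all 24 groups for 4 of the 8 genes: Ppp1r1b, Pde10a, Penk and Tac1.

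**Figure D2:**
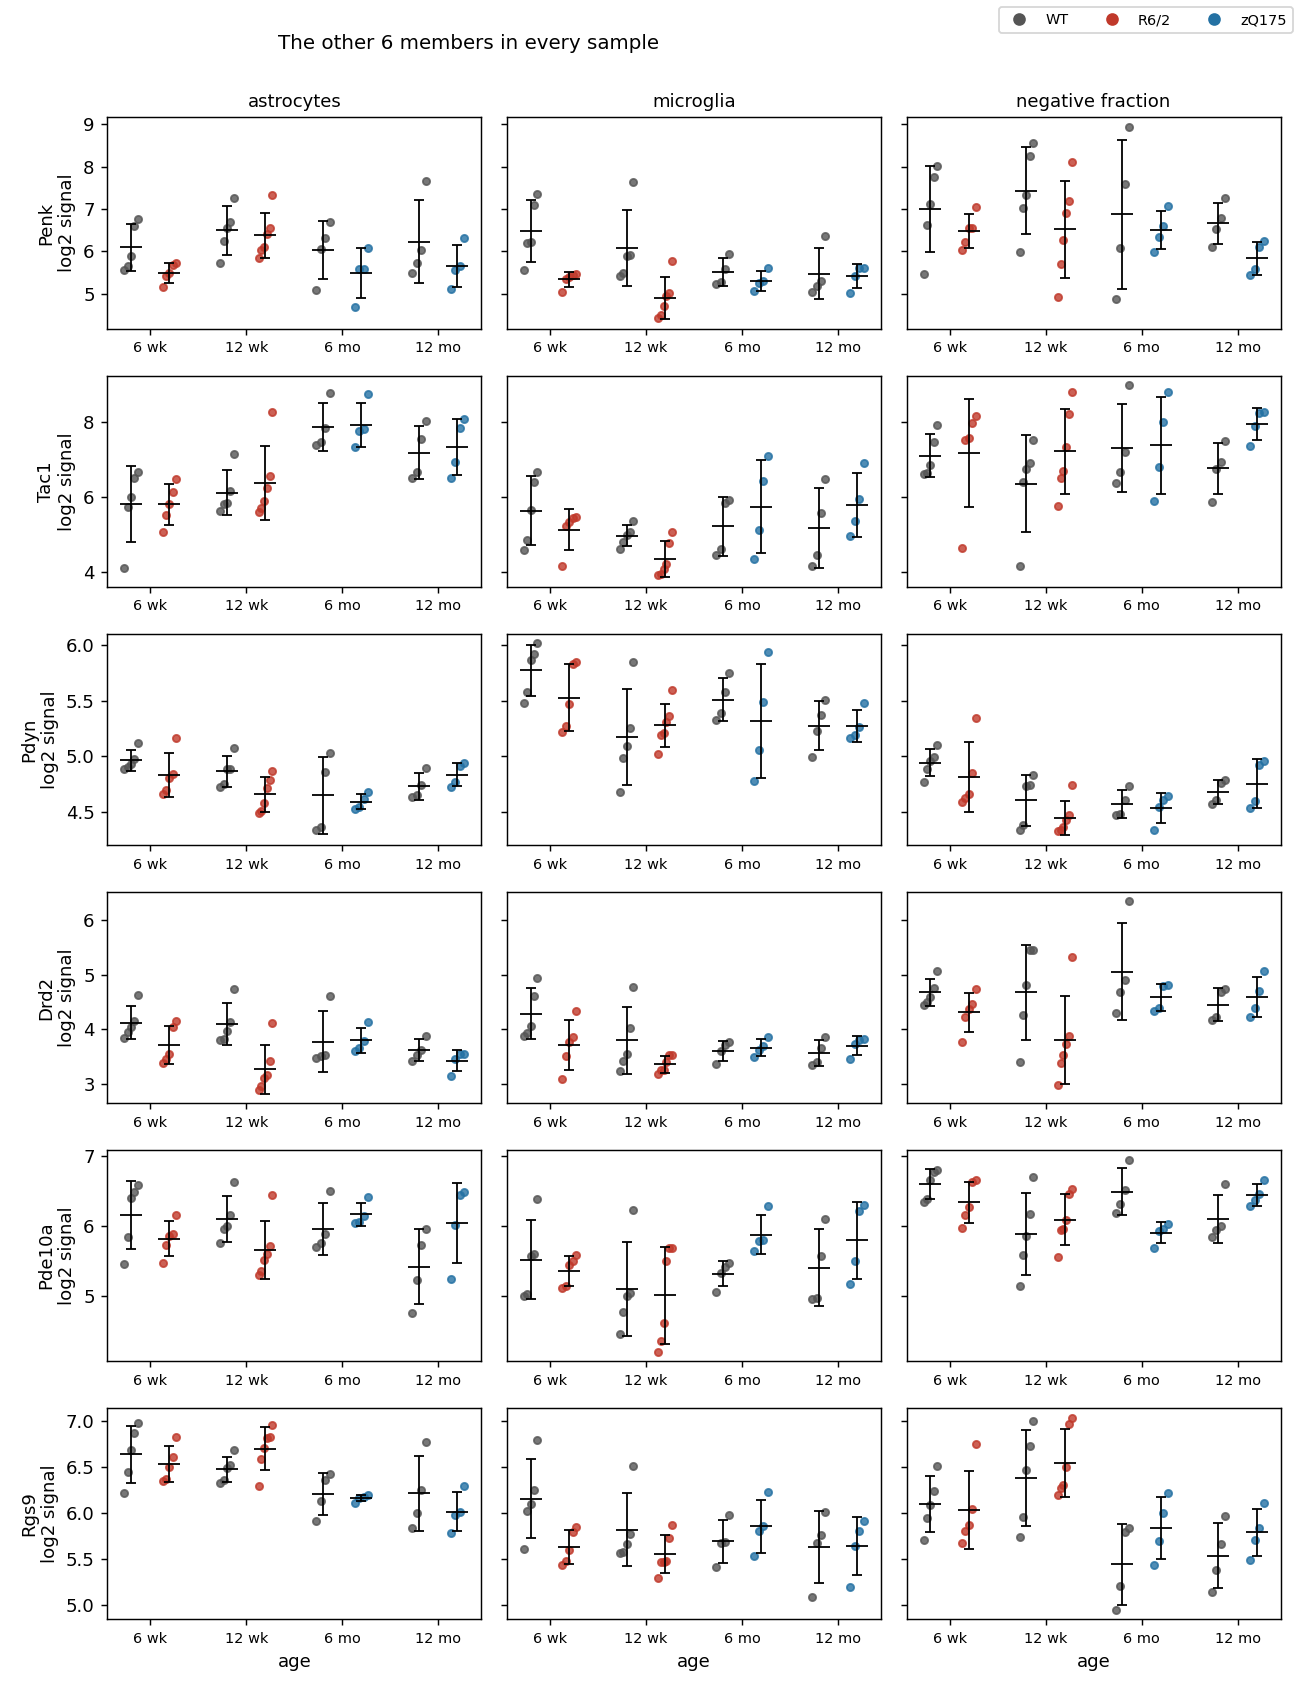
Log2 signal of Penk, Tac1, Pdyn, Drd2, Pde10a and Rgs9 in each sample by sorted fraction, age and genotype, with group means and SDs (n = 4 to 6); each row has its own vertical axis, which does not start at 0. Pdyn is highest in microglia, Tac1 of astrocytes is higher in the groups of 6 and 12 months, and mutant and WT samples overlap in most panels.

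The comparison of mutant with WT asked whether these transcripts differed by genotype in each fraction. Ppp1r1b was lower in R6/2 astrocytes at 12 weeks. The 6 R6/2 samples ran from 8.39 to 8.97 with a median of 8.83, and the 5 WT samples stood at 9.86, 9.87, 10.02, 10.10 and 10.14. The groups did not overlap, and the difference was -1.29 ± 0.16 (SE), 2.44-fold lower (adjusted p = 8.85e-06). At 6 weeks the R6/2 samples stood at 8.93, 9.003, 9.45, 9.70 and 9.96 and the WT samples at 9.70, 9.71, 9.92, 9.94 and 10.05. There 2 R6/2 samples fell far under the WT range, the sample at 9.45 lay under it by less, and those at 9.70 and 9.96 reached into it (-0.46 ± 0.17, adjusted p = 0.226).

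In zQ175 astrocytes the same gene stood at 9.06, 9.42, 9.42 and 9.52 at 12 months, against 9.56, 9.73, 9.74 and 10.03 in WT. The groups did not overlap but were separated by little, and the difference of -0.40 ± 0.13 did not pass (adjusted p = 0.0907). In that comparison 12.7% of all genes did not overlap. Beside the fall in R6/2 astrocytes at 12 weeks, 7 of 20 astrocyte markers were lower and 1 higher (median -0.15), and 7 of 13 oligodendrocyte markers were lower (median -0.39). The mean log2 signal of the astrocyte list was 12.17 to 12.46 in R6/2 and 12.46 to 12.55 in WT, and its part in the result was not tested.

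Ppp1r1b in microglia was dim and followed the same direction in R6/2. At 12 weeks the 6 R6/2 samples ran from 4.98 to 5.52 with a median of 5.37, and WT samples stood at 5.76, 5.80, 5.83, 6.78 and 7.08. The groups did not overlap (-0.92 ± 0.26, adjusted p = 0.036). This call rests on few samples: without R6/2 sample 11, 13, 15, 17 or 21 the adjusted p was 0.065, 0.0586, 0.0504, 0.0574 and 0.0709, without WT sample 16 it was 0.103 and without WT sample 20 it was 0.106, with differences between -0.71 and -0.94. At 6 weeks R6/2 microglia stood at 5.40, 5.56, 5.60, 6.17 and 6.74 and WT at 6.45, 6.50, 6.72, 7.09 and 7.20 (-0.90 ± 0.27, adjusted p = 0.238), with only the highest R6/2 sample inside the WT range. Beside the 12-week difference, 0 of 17 microglia markers were called, 1 of 19 astrocyte markers was higher and 1 of 13 endothelial and mural markers was lower, and their part was not tested. In zQ175 microglia the differences were -0.48 at 6 months and -0.02 at 12 months.

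Ppp1r1b of the negative fraction did not show the fall at 12 weeks: R6/2 averaged 6.26 ± 0.34 (SD, n = 6) and WT 6.21 ± 0.37 (n = 5), a difference of 0.06 with a 95% interval of -0.31 to 0.43. The genotype effect in astrocytes differed from that in the negative fraction by -1.34 ± 0.30 (SE, adjusted p = 0.000578), a contrast in which 18.7% of all genes were called. In microglia the effect differed from that in the negative fraction by -0.98 ± 0.30 (adjusted p = 0.0119), where 22.4% of all genes were called. Astrocytes and microglia differed by -0.36 (95% interval -0.96 to 0.23). In the R6/2 negative fraction at 12 weeks most astrocyte markers were higher than in WT, as given below beside Scn4b. Ppp1r1b was brightest in astrocytes, and the part of these markers in the contrasts with the negative fraction was not tested.

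Set against zQ175 at 12 months, the R6/2 effect on Ppp1r1b in astrocytes at 12 weeks was larger by -0.88 ± 0.22 (adjusted p = 0.00953), and 10.1% of all genes were called in that contrast. The models also differ in age and cohort. Among the 6 genes tested, Ppp1r1b alone passed, and Pde10a followed at -1.07 ± 0.37 (adjusted p = 0.0582), where the R6/2 difference from WT was -0.44 ± 0.22 and the zQ175 difference 0.62 ± 0.29. Without WT sample 36 or 37, R6/2 sample 17 or zQ175 sample 32, Pde10a passed too, at -1.17 to -1.33. In microglia (4 genes tested, 1.92% of all genes called) and in the negative fraction (6 tested, 10.7% called) 0 were called by limma for a difference between the models, with 3 and 1 at an unadjusted p under 0.05.

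Scn4b was the only one of the 8 genes called lower in all 3 R6/2 fractions at 12 weeks. In the negative fraction, where its signal was highest, the 6 R6/2 samples ran from 5.99 to 7.53 with a median of 7.21, and the WT samples stood at 8.05, 8.34, 8.62, 8.77 and 9.27. No R6/2 sample reached the WT range, and the difference was -1.55 ± 0.24 (SE), 2.92-fold lower (adjusted p = 7.03e-05). R6/2 sample 21, at 5.99, stood apart from the other 5, and without it or any other single sample the call held.

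At 6 weeks the R6/2 negative samples stood at 7.87, 7.94, 7.99, 8.13 and 8.17, and WT at 8.32, 8.38, 8.40, 8.92 and 9.16. All 5 R6/2 samples lay under the WT range, and the difference of -0.62 ± 0.25 did not pass (adjusted p = 0.591), with 4.82% of all genes free of overlap. Beside the 12-week fall, 18 of 20 astrocyte markers were higher in the R6/2 negative fraction (median 1.73) and 5 of 17 endothelial and mural markers were lower (median -0.56). Of 10 oligodendrocyte precursor markers 6 were higher, among them Lhfpl3 (3.10), Cspg5 (1.82) and Gpr17 (1.40), and Cspg4 was lower (-1.25). The astrocyte list averaged 9.50 to 10.69 over the R6/2 samples and 8.31 to 8.84 over WT, the endothelial list 11.23 to 11.98 and 12.01 to 12.33. Their part in the Scn4b result was not tested.

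In the zQ175 negative fraction the difference at 12 months was narrower. Scn4b stood at 8.57, 8.66, 8.67 and 8.73 in zQ175 and at 9.31, 9.47, 9.52 and 9.56 in WT. Mutant and WT samples did not overlap, as for 18.6% of all genes, and the difference was -0.81 ± 0.11, 1.75-fold lower (adjusted p = 0.00169). At 6 months the values were 9.15, 9.21, 9.24 and 9.42 in zQ175 and 8.98, 9.29, 9.30 and 9.33 in WT, a difference of 0.03 with a 95% interval of -0.20 to 0.26. The change of the effect from 6 to 12 months was -0.84 ± 0.15 (adjusted p = 0.0864), in a contrast where 0.0317% of all genes were called. At 12 months 3 of 11 microglia markers and 4 of 10 oligodendrocyte precursor markers were higher in the zQ175 negative fraction, and their part was not tested.

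In astrocytes at 12 weeks Scn4b stood between 5.10 and 7.04 in the 6 R6/2 samples, with a median of 5.54, and at 6.55, 6.81, 7.22, 7.25 and 7.83 in WT. The difference was -1.31 ± 0.35 (adjusted p = 0.00874), with sample 21 inside the WT range and sample 19, at 6.42, just under it. The median of 15 endothelial and mural markers was -0.80 in the same comparison, with 1 called lower, and over the 37 astrocyte samples the deviation of Scn4b from its group mean followed that list with r = 0.79, as a description. The list ranged from 7.33 to 10.16 over R6/2 samples and 8.47 to 9.79 over WT. Its part was not tested.

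Microglia of R6/2 mice at 12 weeks stood between 4.82 and 5.85 for Scn4b, with a median of 5.11, and WT at 5.89, 6.10, 6.35, 6.52 and 7.36. The groups did not overlap (-1.18 ± 0.33, adjusted p = 0.0367). The call was lost without R6/2 sample 11, 13, 17 or 21 (adjusted p = 0.0652, 0.0788, 0.072 and 0.0726) and without WT sample 16, 18 or 20 (0.0747, 0.0587 and 0.108), with differences from -0.95 to -1.20. At 6 weeks R6/2 stood at 5.62, 5.79, 5.83, 6.05 and 6.32 and WT at 6.15, 6.97, 7.18, 8.21 and 8.29. The difference of -1.44 ± 0.34 missed the threshold (adjusted p = 0.0808) and passed without WT sample 1, the lowest of its group (-1.74, adjusted p = 0.00686).

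zQ175 microglia at 6 months stood at 4.82, 4.93, 5.12 and 5.24 for Scn4b and WT at 5.66, 6.06, 6.33 and 6.81, with no overlap (-1.19 ± 0.26, adjusted p = 0.466), as for 2.55% of all genes. At 12 months the order was not kept, with 5.37, 5.44, 5.45 and 6.07 in zQ175 and 4.94, 4.97, 5.34 and 5.98 in WT. For Scn4b no difference of the effect between fractions was called in either model. Beside the Ppp1r1b calls at 12 weeks, limma called 0 of the 6 genes tested between R6/2 astrocytes and microglia (9.6% of all genes). In zQ175 at 12 months it called 0 of 6 in each contrast (1.84% of all genes for astrocytes and microglia, 3.65% for astrocytes and the negative fraction, 6.84% for microglia and the negative fraction). In that order, 0, 1, 0 and 1 had an unadjusted p under 0.05. The R6/2 effect on Scn4b in astrocytes differed from that in the negative fraction by 0.24 (95% interval -0.68 to 1.15) and the zQ175 effect by -0.08 (-0.96 to 0.79).

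Penk did not pass the test by genotype in any comparison, and its widest differences were in R6/2 microglia. At 6 weeks R6/2 samples stood at 5.05, 5.34, 5.40, 5.44 and 5.48 and WT at 5.57, 6.20, 6.22, 7.10 and 7.35, which did not overlap (-1.14 ± 0.37, adjusted p = 0.324), as 2.89% of all genes did not in that comparison. At 12 weeks R6/2 ran from 4.42 to 5.78 with a median of 4.83 and WT stood at 5.43, 5.50, 5.90, 5.93 and 7.63 (-1.18 ± 0.35, adjusted p = 0.0535), a miss by a small margin. Without R6/2 sample 17 or WT sample 12 or 14 it passed (adjusted p = 0.0299, 0.037 and 0.0426). Penk reached the brightness limit of that fit (5.43) only through its WT means, 6.49 and 6.08. The R6/2 means, 5.34 and 4.90, lay under it, so these microglia differences are not independent of the filter. The negative fraction gave differences of -0.92 ± 0.53 for Penk at 12 weeks and -0.83 ± 0.61 at 12 months, with R6/2 samples from 4.92 to 8.12 and WT samples from 6.00 to 8.56 at 12 weeks. Those groups overlapped over most of their range, and the 95% intervals, -2.03 to 0.20 and -2.13 to 0.48, are wide.

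Tac1 was not called by genotype in any of the comparisons that tested it. In astrocytes the 4 differences lay between 0.00 and 0.26, and in the negative fraction between 0.07 and 1.18, and zQ175 microglia gave 0.53 and 0.63. The zQ175 negative fraction at 12 months stood at 7.36, 7.90, 8.26 and 8.27 and WT at 5.87, 6.74, 6.95 and 7.50, with 1 zQ175 sample inside the WT range (1.18 ± 0.61, adjusted p = 0.2). The R6/2 negative fraction at 12 weeks ran from 5.77 to 8.82 and WT from 4.16 to 7.54 (0.88 ± 0.65, adjusted p = 0.351). In R6/2 microglia Tac1 was too dim to test, and its means were lower than WT, by -0.51 at 6 weeks and -0.63 at 12 weeks. The widest Tac1 differences were the upward ones of the negative fraction, where Scn4b fell, and neither passed the test.

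Pdyn was tested by genotype in R6/2 microglia alone, where the differences were -0.25 ± 0.18 at 6 weeks and 0.11 ± 0.17 at 12 weeks. Drd2, below the brightness limit, averaged 3.28 in R6/2 astrocytes at 12 weeks (2.89 to 4.11) against 4.10 in WT (3.81 to 4.74), and 3.81 in the R6/2 negative fraction (2.99 to 5.33) against 4.68 (3.40 to 5.46). Both pairs overlapped, with R6/2 sample 21 the highest of its group each time.

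Pde10a and Rgs9, each read from its brightest probe set, were not called by genotype. Some of their dimmer probe sets differed more, as given below. For Pde10a the widest differences were 0.62 ± 0.29 in zQ175 astrocytes at 12 months (adjusted p = 0.24) and -0.59 ± 0.18 in negative cells of zQ175 at 6 months (adjusted p = 0.998). In the latter, zQ175 stood at 5.69, 5.94, 5.97 and 6.03 and WT at 6.20, 6.31, 6.52 and 6.95, without overlap, like 2.01% of all genes, and at 12 months the difference was 0.35 ± 0.18 the other way. Rgs9 ranged from -0.53 ± 0.19 in R6/2 microglia at 6 weeks (adjusted p = 0.406) to 0.39 ± 0.24 in the zQ175 negative fraction at 6 months (adjusted p = 0.998). In R6/2 astrocytes at 12 weeks, where Ppp1r1b was lower, Rgs9 was 0.22 ± 0.13 higher, with a 95% interval of -0.05 to 0.50.

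**Figure D3:**
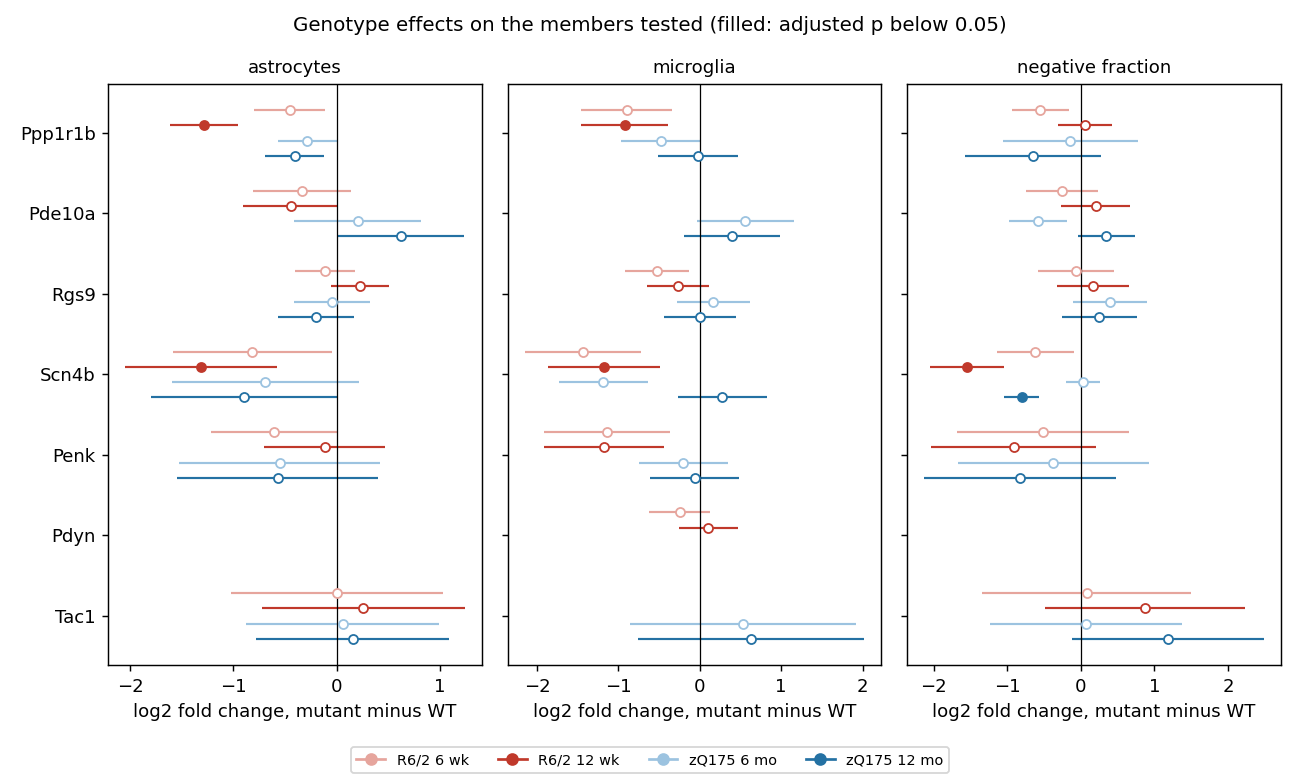
Mutant minus WT log2 fold change of each gene tested, with 95% intervals, in 3 fractions and 4 model and age settings; filled points passed an adjusted p below 0.05, and a missing point was too dim to test. Filled points are Ppp1r1b and Scn4b at 12 weeks in R6/2 and Scn4b of the zQ175 negative fraction at 12 months, all left of 0.

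Counted by comparison, 2 of 6 genes tested were called in R6/2 astrocytes at 12 weeks, both lower, where 28.7% of all genes were called and 14.2% were called lower. In R6/2 microglia at 12 weeks 2 of 5 were called lower, against 6.08% of all genes called and 3.56% called lower. Both had R6/2 means under the brightness limit there, so that count is not independent of the filter. Without the filter limma called neither (adjusted p = 0.0523 for Ppp1r1b and 0.0529 for Scn4b). In the R6/2 negative fraction at 12 weeks 1 of 6 was called, against 26.2% of all genes called and 10.7% called lower. In the zQ175 negative fraction at 12 months 1 of 6 was called, against 6.93% and 3.08%. In these 4 comparisons 14%, 4.02%, 9.45% and 18.6% of all genes did not overlap between mutant and WT.

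The other 8 comparisons called 0 of these genes by limma. At 6 weeks the share of all genes called was 1.2% (astrocytes), 0.41% (microglia) and 0.377% (negative fraction), and 2, 4 and 2 of these genes had an unadjusted p under 0.05. For zQ175 at 6 months the shares were 0.38%, 0.0082% and 0%, with 0, 1 and 1 at an unadjusted p under 0.05. At 12 months they were 5.9% in astrocytes and 3.15% in microglia, with 2 and 0. In R6/2 microglia the means of all 8 genes were lower than WT at 6 weeks and those of 7 at 12 weeks. The median over the 5 genes tested was -0.90 and -0.92, beside -0.05 over all genes tested at both ages. Penk reached the brightness limit of that fit (5.43) only through its WT groups. The 12-week R6/2 means of Ppp1r1b (5.33) and Scn4b (5.26) also lay under it, so these medians are not independent of the filter. For zQ175 microglia at 12 months that median was 0.14, with 3 of 8 means lower. Averaged over the 8 genes, WT microglia samples 2 and 3 of 6 weeks stood at 6.46 and 6.62. The other WT samples there stood at 5.47 to 5.79 and R6/2 at 5.11 to 5.61. At 12 weeks WT sample 20 stood at 6.35, the other WT samples at 5.13 to 5.35 and R6/2 at 4.66 to 5.16. These genes rose and fell together in microglia, as given below, so their means are not separate observations.

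The differences of the effects between ages called 0 of these genes in any fraction or model. For R6/2 these contrasts called 1.15% (astrocytes), 0.251% (microglia) and 4.25% (negative fraction) of all genes, with 1, 0 and 2 of these genes at an unadjusted p under 0.05. Ppp1r1b in astrocytes came closest, at -0.83 ± 0.23 (adjusted p = 0.0852), and passed without R6/2 sample 7 or 8 of the 6-week group (-0.95 and -0.93, adjusted p = 0.049 and 0.0425). For zQ175 they called 0.00808%, 0% and 0.0317% of all genes, with 0, 1 and 2 of these genes at an unadjusted p under 0.05. The effect on Scn4b in zQ175 microglia changed by 1.46 ± 0.36 between 6 and 12 months, which did not pass (adjusted p = 0.426).

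Within WT samples, a few of the genes were called between ages. Pdyn in microglia stood at 5.48, 5.58, 5.87, 5.92 and 6.01 at 6 weeks and 4.68, 4.99, 5.10, 5.25 and 5.85 at 12 weeks. Only the highest 12-week sample, 20, reached the 6-week range (-0.60 ± 0.18, adjusted p = 0.0174), and 30.1% of all genes were called there. Pdyn reached the brightness limit of that fit (5.43) only through its 6-week groups, at 5.77 in WT and 5.53 in R6/2. Both 12-week groups lay under it (5.17 in WT and 5.28 in R6/2), so the call is not independent of the filter. Without WT sample 16 the difference was -0.48 (adjusted p = 0.0513), and without WT sample 1, 2, 3, 5 or 20 Pdyn fell under the brightness limit and was not tested. The number of these genes called therefore ran from 0 to 3 when single samples were left out, 3 being without WT sample 20 (Ppp1r1b, Rgs9 and Scn4b). Pde10a in the negative fraction stood at 6.35, 6.39, 6.66, 6.78 and 6.80 at 6 weeks and 5.14, 5.59, 5.86, 6.17 and 6.70 at 12 weeks. The difference was -0.70 ± 0.23 (adjusted p = 0.017), with 51% of all genes called, and without WT sample 16 it was -0.52 (adjusted p = 0.0587).

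Scn4b in WT microglia differed by -0.91 ± 0.26 between 6 and 12 months (adjusted p = 0.0447), where 7.79% of all genes were called, and by -0.91 ± 0.34 between 6 and 12 weeks (adjusted p = 0.0503). The first call was lost without WT sample 22, 23, 25, 35, 36 or 37, with differences of -0.71 to -0.96 (adjusted p = 0.0632 to 0.126). The WT mean at 12 months (5.31) lay under the brightness limit of that fit (5.40), so this call is not independent of the filter. By limma it was also lost without the filter (adjusted p = 0.0636) and in a fit of only the 2 groups (adjusted p = 0.133). The difference between 6 and 12 weeks passed without WT sample 1 or 20 (adjusted p = 0.00772 and 0.0218). In the other WT age comparisons, which called 28.2% (astrocytes, weeks), 3.99% (astrocytes, months) and 0.0634% (negative fraction, months) of all genes, 0 of these genes were called by limma, with 0, 0 and 2 at an unadjusted p under 0.05.

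Whether the 8 genes rose and fell together from sample to sample was described from the deviations of 37 samples from their group means within a fraction. The 28 pairs had a median Pearson r of 0.35 in microglia, 0.21 in astrocytes and 0.19 in the negative fraction. Over all pairs of genes above the brightness limit it was 0.02, 0.02 and 0.03. The 28 pairs also hold genes under that limit (Drd2 and Pdyn, and in microglia Pde10a and Tac1), so the sets compared are unlike. In microglia all 28 pairs were above 0, the highest being Drd2 with Penk (0.58), Scn4b with Drd2 (0.57), Ppp1r1b with Penk (0.56) and Ppp1r1b with Drd2 (0.54). In astrocytes 6 pairs were below 0 and in the negative fraction 9. The samples share arrays and sorts, so these values carry no test.

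Ppp1r1b in astrocytes, where it was brightest, was near 0 with Scn4b (0.07), Penk (-0.02) and Drd2 (0.02), and followed the astrocyte marker list with r = 0.50, the other striatal projection neuron genes with 0.42 and the oligodendrocyte list with -0.49. Scn4b in astrocytes went with Penk (0.55) and Rgs9 (0.39) and with the list of other striatal projection neuron genes (0.77). In the negative fraction, where it was brightest, it was near 0 or below with Penk (0.01), Rgs9 (-0.02) and Drd2 (-0.33), and with that list at -0.10. Penk, Drd2 and Rgs9 of the negative fraction followed the list with r = 0.69, 0.65 and 0.63. Tac1 of the negative fraction went with oligodendrocyte markers (0.57), and Pdyn there with endothelial and mural markers at -0.68.

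**Figure D4:**
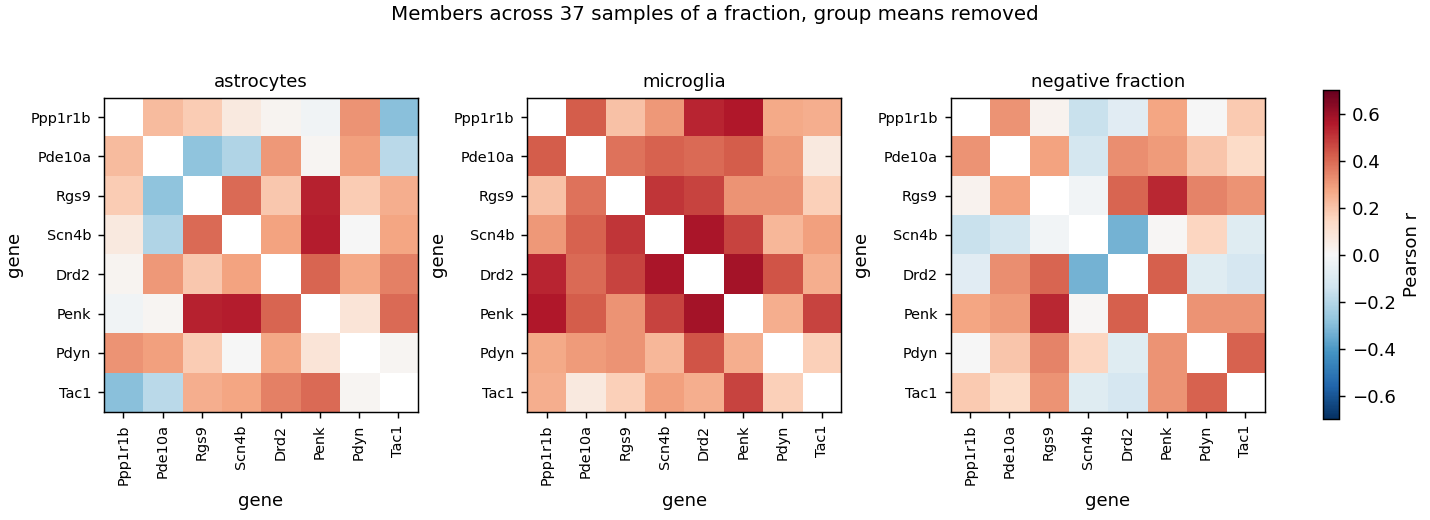
Pearson r between each pair of the 8 genes over 37 samples of a fraction, after removing group means; red is positive, blue is negative, and the diagonal is left blank. All 28 pairs are positive in microglia, against 22 in astrocytes and 19 in the negative fraction.

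The genes whose group means were most like those of a member were sought over all 24 groups, among genes that are not members. Nearest to Ppp1r1b were Ngef, Gm266 and Kcnj14 (Pearson r = 0.98 for each), and its best member, Rgs9, came at 0.66 in place 2346. For Scn4b they were Drd1, the dopamine D1 receptor gene (0.95), Alx1 (0.95) and Ryr2 (0.94), and Drd2 was its nearest member at 0.92, in place 27 of all genes. Penk was nearest to Nrgn (0.84), Fbxl7 (0.82) and Pcp4l1 (0.82), Tac1 to Car3 (0.95), Armh4 (0.93) and Tmem108 (0.93), and Drd2 to Drd1 (0.89), Pcdh12 (0.88) and Lzts1 (0.88). With members counted too, Scn4b was the gene most like Drd2 of all (0.92, place 1) and took place 12 for Penk (0.80).

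Pde10a was nearest to Cdc42se2 (0.87), Snap91 (0.87) and Pak3 (0.86), Rgs9 to Echdc2 (0.90), Gm17501 (0.89) and Muc1 (0.88), and Pdyn to Olfr65 (0.95), Ang3 (0.95) and Poteg (0.94). No member had a positive r with Pdyn over the 24 groups, Drd2 being the highest at -0.32. Over the 8 groups of the negative fraction alone the nearest gene to Scn4b was Zfhx3 (0.98) and to Ppp1r1b Abraxas2 (0.96). Likeness over so few groups that share the fraction contrast is a description only.

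Other genes of striatal projection neurons were counted beside the 8. Of all genes, 28.7% were called in R6/2 astrocytes at 12 weeks, 6.08% in microglia and 26.2% in the negative fraction. For zQ175 at 12 months the shares were 5.9%, 3.15% and 6.93%. They stand beside every list count below, and several counts in R6/2 astrocytes and the R6/2 negative fraction lie near them. In R6/2 astrocytes at 12 weeks 8 of 27 tested were lower and 1 higher (median -0.20), among them Wnt7a (-0.91), the calcium sensor gene Hpca (-1.70), Lmo4 (-0.46) and Kcnip2 (-0.85). In R6/2 microglia at 12 weeks 5 of 23 were lower and 0 higher: Hpca (-2.13), Arpp21 (-2.19), Ppp1r1a (-0.53), Meis2 (-1.11) and Bcl11b (-1.24). In the R6/2 negative fraction 7 of 26 were lower and 3 higher, the latter being Six3 (2.51), Arpp21 (3.17) and Eya1 (1.63), with Rgs4 lower (-0.72). Arpp21, a cyclic AMP-regulated phosphoprotein gene, thus fell in R6/2 microglia and rose in the negative fraction. Most astrocyte markers were also higher in that negative fraction, and their part in these lists was not tested.

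In the zQ175 negative fraction at 12 months 3 of 31 were lower, Hpca (-1.27), Rgs4 (-0.44) and Drd1 (-0.86), and 0 higher. In zQ175 astrocytes at 12 months 2 of 29 were higher (Bcl11b, 1.32, and Dclk3, 1.05) and 1 lower (Strip2, -0.54). At 6 weeks 1 of 27 was higher in R6/2 astrocytes (Foxp1, 0.67) and 1 of 23 lower in microglia (Hpca, -1.56). The other comparisons called 0 by limma.

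Pan-neuronal markers were called in both directions. In R6/2 astrocytes at 12 weeks 4 of 18 were higher and 2 lower, with Snhg11 at 4.47, Thy1 at -1.40, Syn1 at 0.63 and Tubb3 at 1.09, and the list's median was -0.01. In the R6/2 negative fraction 5 of 19 were higher and 1 lower, and in zQ175 astrocytes at 12 months 6 of 19 were higher, led by Snhg11 (3.88), and 1 lower. In R6/2 microglia at 12 weeks 2 of 16 were lower, Snap25 (-1.05) and Elavl4 (-0.62), and 0 higher. In zQ175 microglia at 12 months 2 of 17 were higher, Tubb3 (2.37) and Elavl3 (1.26). Sample 31 of that group stood at 7.55 for the list's mean, the other 3 zQ175 samples at 6.54 to 6.66 and WT at 5.81 to 6.43. In the same comparison 3 of 13 oligodendrocyte markers were higher (Mag, 1.29, Mog, 1.52, and Gjb1, 1.63), as were 2 of 6 precursor markers (Cspg4, 1.95, and Olig1, 1.94) and 1 of 19 astrocyte markers (S100b, 2.18), with 0 lower, and their part was not tested. Among markers of other neurons, 2 of 4 striatal interneuron and 1 of 4 cortical projection neuron markers were lower in R6/2 astrocytes at 12 weeks, and both of the 2 cortical markers tested were lower in R6/2 microglia. In the R6/2 negative fraction at 12 weeks 2 of 4 cortical markers were higher (Cux2, 1.13, and Rorb, 1.28) and 1 lower (Nrgn, -1.30), and 1 of 4 interneuron markers was higher and 1 lower. In zQ175 at 12 months Cux2 was higher in astrocytes (0.63), where Rorb was lower (-0.33), and in the negative fraction (0.71).

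Signalling partners of the members, the G protein and cyclic AMP genes, gave 5 lower and 1 higher of 16 tested in R6/2 astrocytes at 12 weeks. The 4 with the smallest p were Prkar1b, a regulatory subunit of protein kinase A (1.35), Gnao1 (-0.33), Pde4b (-0.20) and Cdk5 (-0.32). In the R6/2 negative fraction 4 of 17 were lower, the phosphodiesterase genes Pde7b (-1.06) and Pde1b (-0.97), Prkar2b (-0.60) and Drd1 (-0.69), and 1 was higher, Gnb5 (0.43). In R6/2 microglia at 12 weeks 1 of 16 was lower, Rgs7bp (-0.90), and at 12 months 1 each was lower in zQ175 astrocytes (Rgs7bp, -0.61) and the negative fraction (Drd1, -0.86).

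Genes of opioid and tachykinin receptors and of peptide processing moved upward where they were called, except Scg2 (-1.76) in R6/2 astrocytes at 12 weeks. Scg5 was higher there (0.63), in the R6/2 negative fraction (1.71), in zQ175 astrocytes at 6 months (0.40) and 12 months (0.59) and in zQ175 microglia at 12 months (1.96), where Pam, which amidates peptides, was higher too (1.28), beside the oligodendrocyte, precursor and astrocyte markers higher in that comparison. Pcsk1n was higher in R6/2 astrocytes (0.31), the R6/2 negative fraction (2.08) and the zQ175 negative fraction at 12 months (1.65). In the R6/2 negative fraction 3 of 6 were higher and 0 lower, beside the 18 of 20 astrocyte markers that were higher there, and the 6 of 10 oligodendrocyte precursor markers, whose part was not tested.

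Probe sets of 1 gene disagreed for some members. Tac1 had 2 probe sets, and between WT astrocytes and microglia the brighter gave 1.41 and the dimmer -0.23. In the zQ175 negative fraction at 12 months they gave 1.18 and -0.22. Pde10a had 5, which gave from -0.31 to 1.12 between WT astrocytes and microglia, and Rgs9 had 3, which gave 0.56, 1.03 and -0.11. By genotype, those of Pde10a in R6/2 microglia gave from -1.04 to -0.04 at 6 weeks, the brightest -0.16. At 12 weeks they gave from -0.80 to 0.03, the brightest -0.09. In the R6/2 negative fraction at 12 weeks those of Rgs9 gave 0.16 (the brightest), 0.95 and 0.18. Ppp1r1b, Scn4b, Drd2, Penk and Pdyn had 1 each, so their values have no second probe set to compare with.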

How the data were processed

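RNA from 111 sorted striatal samples was measured on Affymetrix arrays. The authors' deposited values are log2 signals for 45101 probe sets. The submitters' processing notes name affy, RMA and limma. Their versions and the set of arrays that RMA treated jointly are not stated there. No values were changed before testing, and the number of arrays limits the precision. Of the sample columns 0 were left out. Probe sets with 1 symbol in the platform annotation (34958) named a gene, and the brightest stood for it. A gene was tested where its mean over the arrays of a fit reached the 40th percentile of probe set means, which 5 or 6 of the 8 members did in the genotype fits (Drd2 in none, Pdyn only in R6/2 microglia, and Pde10a and Tac1 not there).

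Differences were tested two-sided with lmFit and eBayes of limma 3.58.1, under R 4.3.3, over all genes tested, with Benjamini-Hochberg adjustment and calls at an adjusted p below 0.05. Each fraction and model had 1 fit of 4 groups. WT fractions were compared over 18 samples each, with age as an additive term. Differences of effects came from fits of all groups involved. The code was tested on simulated data.

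Named genes were all members, up to 4 called genes by smallest p from 4 other lists, and the 3 genes nearest each member by Pearson r. Bcl11b in R6/2 microglia, Gnb5 in the R6/2 negative fraction and the markers of other cells were named after their values were seen. The members and lists were chosen with earlier results of these data known. Alternatives were quantile normalization, no brightness filter, array weights, mean of probe sets, fits of only the groups compared, the replicate number as a block and leaving out single samples. Leaving out WT samples 12 and 20 was added after seeing the data. Gene positions and sequences are RefSeq's, on GRCm38.p6.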

Additional observations from a re-analysis of the deposited data

Results flagged for a closer look

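Of 192 sets of 1 gene in 1 group, 11 held a sample that stood apart from the rest of its group by Dixon's criterion, and chance alone marks about 1 in 20 sets. R6/2 sample 17 was highest for Pde10a in astrocytes at 12 weeks (6.44, next 5.72), and R6/2 sample 21 was highest for Tac1 there (8.27, next 6.58) and lowest for Scn4b in the negative fraction (5.99, next 7.09 on the log2 scale). WT sample 20 of microglia at 12 weeks was highest for Rgs9 (6.51, next 5.77) and Penk (7.63, next 5.93). R6/2 sample 15 was highest for Pdyn in the negative fraction at 12 weeks (4.74, next 4.47).

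Tac1 was lowest in R6/2 sample 10 of microglia at 6 weeks (4.15, next 5.23) and in R6/2 sample 6 of the negative fraction at 6 weeks (4.65, next 7.54). In the months cohort WT sample 25 was lowest for Scn4b in the negative fraction at 6 months (8.98, next 9.29), zQ175 sample 31 highest for Scn4b in microglia at 12 months (6.07, next 5.45) and WT sample 23 highest for Drd2 in astrocytes at 6 months (4.60, next 3.53).

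The genotype effect on Ppp1r1b differed between groups in 3 contrasts. The R6/2 effect at 12 weeks differed between astrocytes and the negative fraction by -1.34 and between microglia and the negative fraction by -0.98, and the astrocyte effect differed between R6/2 at 12 weeks and zQ175 at 12 months by -0.88.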

How the results depend on the processing

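Of 36 counts of genes called, 22 stayed within 1.5 times under every alternative run, and most of these were counts of 0 that stayed 0. The counts above 0 that stayed were R6/2 astrocytes and the R6/2 negative fraction at 12 weeks and the zQ175 negative fraction at 12 months. So did the R6/2 contrasts of astrocytes and of microglia with the negative fraction. Most counts above 0 moved under some alternative. Of 1306 recomputed values of single genes, 55 lost and 25 gained a call, and 0 changed sign. These values cover only genes with an unadjusted p under 0.05 in the reported fit, a choice that makes a change of sign unlikely. Calls gained by other genes, and calls lost because a gene became too dim to test, are not among them. With the mean of a gene's probe sets, the counts between WT fractions fell from 4, 5 and 4 to 1, 3 and 2, and those between WT ages were 2 in weeks-cohort microglia and 0 in its negative fraction (1 each as reported). Pde10a, Rgs9 and Tac1 were then too dim to test between WT fractions, as was Pde10a in the negative fraction between ages. Quantile normalization gave 1 in zQ175 astrocytes at 12 months (0 as reported), and between WT ages 1 in weeks-cohort astrocytes (0), 2 in weeks-cohort microglia (1) and 0 in months-cohort microglia (1). It gave 1 for the change of the zQ175 effect with age in the negative fraction (0). No brightness filter gave 0 in R6/2 microglia at 12 weeks (2) and 0 between WT ages in months-cohort microglia (1). Fits of only the 2 groups gave 1 in R6/2 microglia at 12 weeks and 0 in both WT age comparisons of microglia. Array weights gave 0 in R6/2 microglia at 12 weeks and 1 at 6 weeks (0), 2 in the R6/2 negative fraction at 6 weeks (0), 3 between WT ages in weeks-cohort microglia, 1 for the change with age in R6/2 astrocytes (0), 2 for that in the zQ175 negative fraction and 2 between models in astrocytes (1). Without WT samples 12 and 20, R6/2 microglia at 12 weeks had 0. The cause was not tested.

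Leaving out single samples gave 0 to 3 in R6/2 microglia at 12 weeks, 0 to 1 at 6 weeks, 0 to 3 between WT ages in weeks-cohort microglia, 0 to 1 in months-cohort microglia and in the weeks-cohort negative fraction, 4 to 5 between WT astrocytes and the negative fraction, 0 to 1 for the change with age in R6/2 astrocytes and 1 to 2 between models in astrocytes.

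Replicate numbers occur once in each fraction. Same-numbered samples correlated above 0.1 in 24 (astrocytes and microglia), 27 (astrocytes and negative) and 19 (microglia and negative) of 37 numbers, so not every pair did, and 25, 26 and 26 correlated best with their own number, a hint from the data. With the replicate block the counts between WT fractions were 4, 5 and 4, and those for R6/2 effects between fractions 0, 1 and 1, equal to the fits without it. Mutant and WT samples of a fraction share no number. Dim signals limit Drd2 and Pdyn most.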
